A study of Mus musculus with 26 samples.

Results

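The peaks described here are regions of open chromatin that were found in mouse embryonic stem cells of the line E14 while LIF was present and that had no counterpart after retinoic acid. They were chosen by their values in the peak lists: a peak of the LIF library on chromosomes 1 to 19 or X with a fold enrichment over background of at least 5, sharing no base with any peak of the RA library. This rule held for 21862 of 125011 LIF peaks of that strength (17.5%), called LIF-only peaks below. The other 103149 overlapped an RA peak and are called shared peaks. The reverse rule gave 8428 RA-only peaks among 107843 RA peaks (7.82%).

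E14 is an established line of mouse embryonic stem cells. The cells were low-passage and feeder-free, and grew for 48 h in serum medium with LIF. During the last 4 h they received either fresh medium with LIF (mESC+) or medium without LIF that contained 1 µM retinoic acid (RA, mESC-), so the loss of LIF and the gain of RA cannot be told apart. Accessible DNA was profiled by Omni-ATAC-seq, in which a transposase cuts and tags open chromatin, with 1 library per state. A difference between the lists therefore has no replicate check, and the intervals given below are 95% intervals that cover counting error over peaks only. The lists hold 163484 LIF and 141465 RA peaks in all, so a LIF-only peak means that no RA peak was listed there, not that RA chromatin was closed. Of 5 stem cell marker genes, 4 (Pou5f1, Sox2, Nanog and Zfp42) had a peak within 1 kb of their start in both lists and Esrrb had none in either. Such peaks were also present at 3 of 3 fibroblast, 2 of 2 neural, 2 of 2 mesoderm and 3 of 4 endoderm marker genes in both lists, so promoter peaks did not separate the cell types.

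LIF is a cytokine of the interleukin 6 family. It binds the receptor pair encoded by Lifr and Il6st and activates the kinase Jak1 and the transcription factor STAT3, which maintains the pluripotency factors of mouse stem cells, among them KLF4. STAT proteins bind palindromes of TTC and GAA, KLF proteins bind CACC boxes, OCT4 binds the octamer alone or next to a SOX2 site, and ESRRB binds an extended nuclear-receptor half-site. RA acts through nuclear receptors that bind DNA as RAR-RXR pairs on repeated half-sites. CTCF, a factor of chromatin loops, and AP-1, a family of stress and growth factor responsive regulators, served as comparisons.

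The following windows of 121 bases, centred on the summit and read from the + strand of GRCm38.p6, show the word behind the KLF, STAT, OCT4-SOX2, octamer and ESRRB motifs, each in the LIF-only peak of highest fold enrichment that carried it within 50 bp of the summit. Capitals mark the word. Peaks ranked 2 to 4 are also given for KLF, which had the widest gap to RA-only peaks among the motifs that LIF-only peaks held more often, and were added by the same rule after the values were seen.
KLF, intron of Gpr39 (chr1:125701855-125701975): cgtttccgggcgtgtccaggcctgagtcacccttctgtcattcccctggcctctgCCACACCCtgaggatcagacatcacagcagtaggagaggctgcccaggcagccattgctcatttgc
KLF, 18442 bp from the start of Crh (chr3:19713778-19713898): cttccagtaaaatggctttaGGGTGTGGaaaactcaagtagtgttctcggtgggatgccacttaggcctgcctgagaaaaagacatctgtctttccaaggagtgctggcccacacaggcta
KLF, intergenic (chr4:39397531-39397651): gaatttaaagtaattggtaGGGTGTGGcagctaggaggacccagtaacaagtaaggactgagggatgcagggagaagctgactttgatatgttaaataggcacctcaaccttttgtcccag
KLF, intron of Elp3 (chr14:65588165-65588285): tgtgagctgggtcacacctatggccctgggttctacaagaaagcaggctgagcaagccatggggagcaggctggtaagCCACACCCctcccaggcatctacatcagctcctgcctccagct
STAT, intergenic (chr16:79406386-79406506): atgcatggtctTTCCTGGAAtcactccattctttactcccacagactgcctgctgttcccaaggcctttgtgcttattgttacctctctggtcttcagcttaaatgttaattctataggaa
OCT4-SOX2, intron of Fam47e (chr5:92570252-92570372): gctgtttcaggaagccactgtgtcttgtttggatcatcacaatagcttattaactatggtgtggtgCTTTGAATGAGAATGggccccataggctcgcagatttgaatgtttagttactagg
octamer, intron of Smurf2 (chr11:106896672-106896792): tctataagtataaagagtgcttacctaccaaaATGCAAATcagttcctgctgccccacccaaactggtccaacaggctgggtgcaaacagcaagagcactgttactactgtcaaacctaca
ESRRB, intergenic (chr6:76417216-76417336): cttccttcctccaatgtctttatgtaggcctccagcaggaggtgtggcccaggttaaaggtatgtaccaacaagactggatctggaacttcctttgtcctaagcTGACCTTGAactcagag
The peaks of the first KLF, the second KLF, the STAT and the OCT4-SOX2 window all had a fold enrichment of 11.2 and a pileup of 19. The KLF words were GGGTGTGG or its complement CCACACCC, and the word in Gpr39 lay 1.5 bp from the summit. The OCT4-SOX2 word differed from the composite consensus at 2 of 15 bases, and the octamer, ESRRB and STAT words matched in full.

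LIF-only peaks were weak. Since the values of the rule itself are described here, no test is given. Their fold enrichment had a median of 5.62 (quartiles 5.16 and 6.53, maximum 15.6), against 8.5 for shared peaks, and their width had a median of 127 bp against 234 bp. The whole-number pileup at the summit, which is the count of overlapping reads or fragments that the peak caller compared with background, could be recovered from fold enrichment and p for every peak of both lists. It ranged from 8 to 40 in LIF-only peaks with a median of 10, against a median of 20 in shared peaks. A count of 10 has a 95% Poisson interval of 4.8 to 18.4, and the lowest pileup in either list was 5. The lowest background level was 0.781 in LIF and 0.687 in RA, a ratio of 0.88, by which a pileup of 10 corresponds to 8.8 on the RA scale. The part of depth in the number of LIF-only peaks was not tested.

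The share of LIF peaks without an RA peak fell from 58.2% at a pileup of 8 or 9 to 40% at 10 or 11, 22.7% at 12 to 14, 9.14% at 15 to 19, 1.93% at 20 to 29 and 0.0686% at 30 or more. The RA list gave 29.8%, 15%, 6.52%, 2.17%, 0.393% and 0.0374% in the same bands. In each of these bands the LIF list held the larger share. Equal pileups are not equal strengths, as the lowest background in RA was 0.88 of that in LIF. RA peaks were also looked up in the longer list, 163484 LIF against 141465 RA peaks. The part of either in this gap was not tested. The 100000 strongest peaks of each list, ranked by p, were also compared, with the fold limit kept. These held 96984 LIF peaks on the chromosomes of the rule and gave 16783 LIF-only and 16323 RA-only peaks. Cutting both lists to the same size brings such numbers together by itself, so their near equality is no finding about the states. With a fold enrichment of at least 8, 1178 LIF-only peaks remained.

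**Figure D1:**
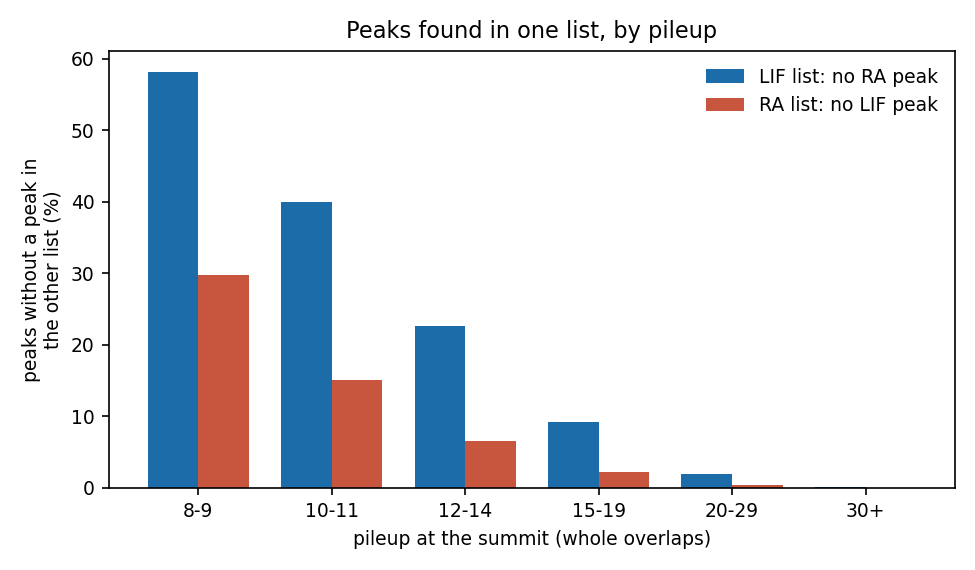
Percent of peaks with a fold enrichment of at least 5 that have no peak in the other list (vertical axis), by whole-number pileup at the summit (horizontal axis), for the LIF list and the RA list. Bars are shares of the peaks in each band; the LIF bar falls from 58.2% to 0.0686% and stands above the RA bar in each band.

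The fold limit divided a continuous range. The 3 members of lowest fold enrichment stood at 5.001 with a pileup of 9, and the 3 peaks just under the limit stood at 4.9985 to 4.9998 with pileups of 16 to 26 over a higher local background. Without the limit, 42585 LIF peaks on these chromosomes had no RA peak, and 20723 of them were under 5. An RA peak lay within 500 bp of 3075 LIF-only peaks (14.1%) and within 10 bp of 47. The median distance to the nearest RA peak was 5371 bp. No RA peak lay within 10 kb of 6760 LIF-only peaks (30.9%). Another LIF-only peak was found within 1 kb of 1034 (4.73%). Across chromosomes, the share of LIF peaks that were LIF-only ranged from 15.7% on chromosome 19 to 19.7% on X.

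The strongest LIF-only peaks lay far from annotated protein-coding starts or inside introns. The peak of highest fold enrichment (chr12:109891287-109891516) reached 15.6 with a pileup of 27, lay 291077 bp from the start of Rtl1, an imprinted gene derived from a retrotransposon, and had its nearest RA peak at 30355 bp. Its central window (chr12:109891347-109891467) held none of the motifs of pluripotency factors or RAR-RXR pairs and is shown without capitals.
strongest LIF-only peak: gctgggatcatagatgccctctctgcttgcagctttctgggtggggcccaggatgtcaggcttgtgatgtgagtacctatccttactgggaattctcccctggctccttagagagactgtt
The second (chr1:177517910-177518101, fold enrichment 14) lay 75654 bp from Zbtb18, a transcriptional repressor. Of the 10 strongest, which spanned 12.4 to 15.6, 5 were intronic, among them those in Rab31, Zbtb37 and Arhgap6, and 5 intergenic. One of the latter lay 60447 bp from Mycn, a MYC family transcription factor, and 1 lay 86964 bp from Syk, a cytoplasmic tyrosine kinase. Both genes were among the 2189 genes of the deposited RNA-seq comparison, with a mean normalized count over its 6 libraries of 5499.7 for Mycn and 1631 for Syk.

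LIF-only peaks were less often at promoters than shared peaks. The summit lay within 1 kb of the start of any annotated gene in 1222 of 21862 LIF-only peaks (5.59%) against 18.5% of shared peaks, a difference of -12.9 percentage points (interval -13.3 to -12.5). RA-only peaks stood close by at 6.4%, a difference of -0.806 points (-1.42 to -0.214) that was 0.0821 points among the 100000 strongest peaks of each list. Only 527 LIF-only peaks were at the start of a protein-coding gene. Introns held 47% of LIF-only peaks, intergenic DNA 41.6% and exons 5.79%. Summits more than 10 kb from any start made up 66.1%, against 53.1% of shared (difference 13 points, 12.3 to 13.7) and 67% of RA-only peaks (-0.9 points, -2.08 to 0.292). These contrasts with shared peaks moved with peak strength. When shared peaks were weighted to the pileups of LIF-only peaks, an alternative added after seeing the data, their promoter share was 7.47% (difference -1.88 points) and their distal share 67.2%, which turned the distal difference to -1.08 points.

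**Figure D2:**
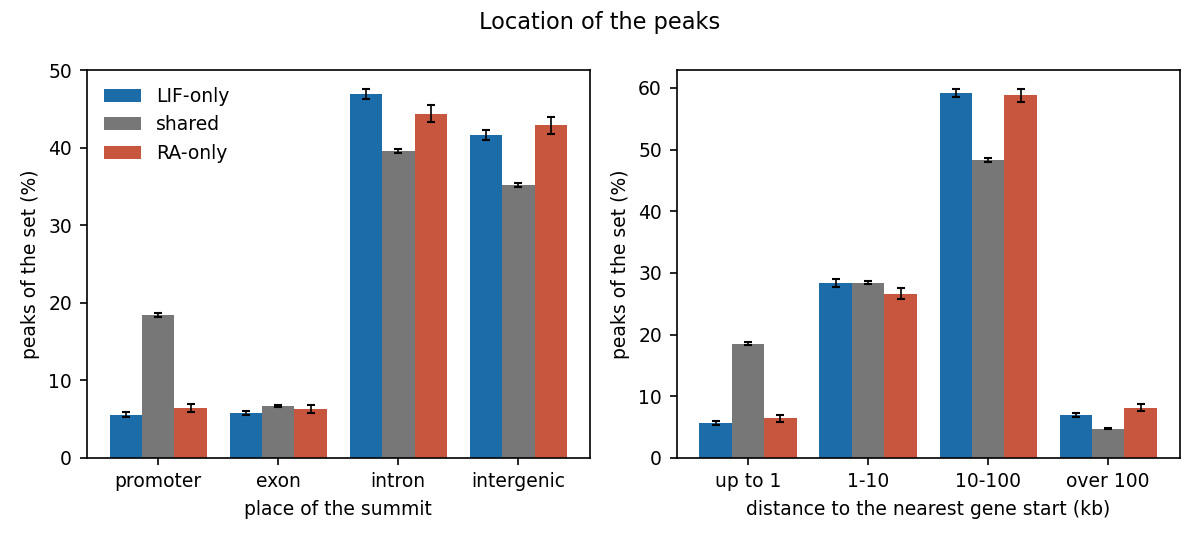
Percent of peaks (vertical axes) in LIF-only, shared and RA-only sets by place of the summit (left) and by distance to the nearest gene start in kb (right); error bars are exact 95% intervals. LIF-only and RA-only bars stand close together, and 18.5% of shared peaks lie at promoters against 5.59% of LIF-only peaks.

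The 300-bp windows around LIF-only summits were poorer in G and C (48.8% ± 5.84, SD) than those of shared peaks (52.2% ± 7.84), a difference of -3.4 points (-3.5 to -3.31), and did not differ detectably from RA-only windows (48.8% ± 6.16, difference 0.0354, -0.117 to 0.188). Repeat-masked bases made up 27.8% ± 28 of LIF-only windows, 19.8% ± 24.2 of shared and 25.7% ± 27.3 of RA-only windows. The differences were 7.9 points (7.5 to 8.3) and 2.1 points (1.41 to 2.79), the second falling to 0.104 points among the 100000 strongest peaks of each list. After weighting by pileup the first differences were -0.696 for GC and 3.28 for repeats.

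KLF and AP-1 words were found more often in LIF-only peaks than in both other sets. Both differences to shared peaks kept their call under all alternatives run, and both to RA-only peaks lost it under 1. At a pileup of 8 or 9, AP-1 words were in 12.2% of LIF-only and 10.4% of shared windows. At 12 to 14 the order turned, with 9.99% against 10.5%, and in each band from 10 up the exact intervals for AP-1 overlapped. The word GGGTGTGG, on either strand, was present in 1535 LIF-only windows (7.02%, exact interval 6.69 to 7.37), in 5.16% of shared and in 3.67% of RA-only windows, and in 5.48% of all 125011 LIF windows. LIF-only windows were higher by 1.87 points than shared (1.51 to 2.24) and by 3.35 points than RA-only windows (2.82 to 3.87). The second difference was no longer called at a fold enrichment of at least 8, where 313 RA-only peaks were left (2.99 points). Turned around, 22.4% of LIF windows with the word were LIF-only, against 17.5% of all LIF windows. The word lay within 50 bp of the summit in 61.3% (58.8 to 63.7) of the LIF-only windows that held it, against 51.9% (50.5 to 53.2) in shared and 52.1% (46.4 to 57.8) in RA-only windows, where 34.1% of positions in a window are that close.

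**Figure D3:**
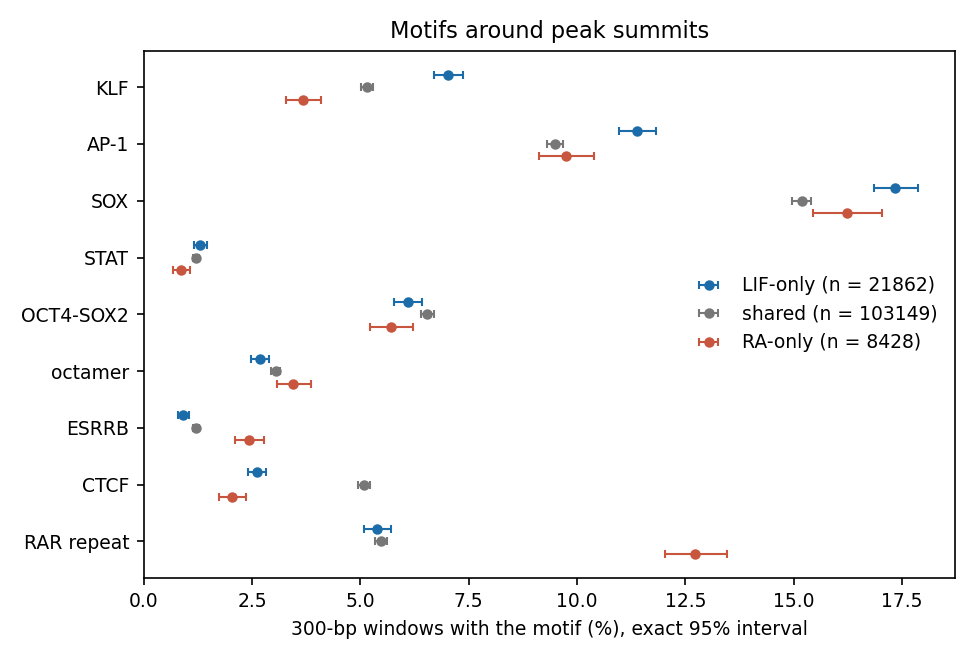
Percent of 300-bp windows around peak summits that hold each motif (horizontal axis) for 9 motifs (vertical axis) in LIF-only, shared and RA-only peaks; points are shares and bars exact 95% intervals. KLF is highest in LIF-only windows at 7.02%, and the RAR repeat stands apart in RA-only windows at 12.7%.

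The share of LIF-only windows with a KLF word was higher among stronger peaks. It was 6.19% at a pileup of 8 or 9, 6.5% at 10 or 11, 8.36% at 12 to 14, 8.99% at 15 to 19 and 9.51% at 20 or more. Shared windows had 4.1%, 4.65%, 4.86%, 5.28% and 5.4% in the same bands, and in each band the exact intervals of the LIF-only and shared windows did not overlap. RA-only windows had 3.69%, 3.05%, 3.62%, 5.75% and 7.45%, where the last bands held 435 and 94 windows and their intervals overlapped those of the LIF-only windows. The higher share in LIF-only windows was seen at promoters (6.46% against 4.21% in shared) and elsewhere (7.05% against 5.37%), and in windows under 50% repeat-masked (6.69% against 5.07%) as in the others (8.13% against 5.69%).

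**Figure D4:**
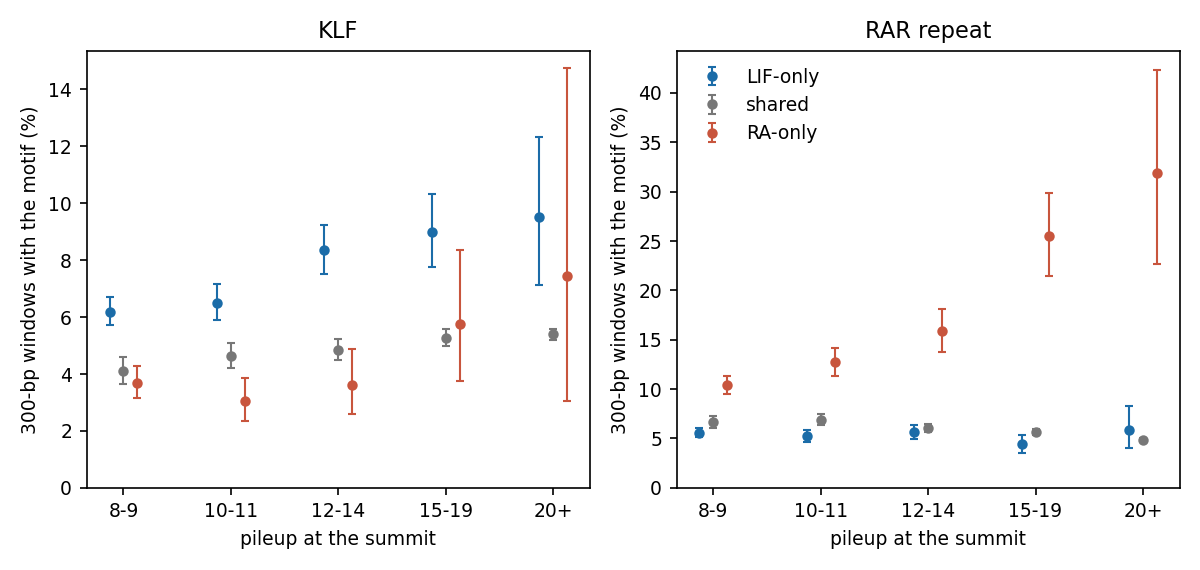
Percent of 300-bp windows with the KLF word (left) and with a RAR repeat (right) by whole-number pileup at the summit, for LIF-only, shared and RA-only peaks; points are shares and bars exact 95% intervals. KLF in LIF-only windows goes from 6.19% to 9.51% across the bands, and the RAR repeat in RA-only windows from 10.4% to 31.9%.

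RAR repeats, 2 nuclear-receptor half-sites in the same direction spaced by 5 or 2 bases with at most 1 mismatch over both, were in 5.39% of LIF-only windows. Shared windows had 5.47% (difference -0.0834 points, -0.407 to 0.253). LIF-only windows were called lower than shared windows under 4 alternatives, with a difference of -1.12 points with shared peaks weighted by pileup, -0.715 weighted by fold enrichment, -1.1 in windows under 50% repeat-masked and -0.531 in windows of 40 to 50% GC. RA-only windows had 12.7%, so LIF-only windows were lower than RA-only windows by 7.34 points on the interval from -8.13 to -6.58. The gap to RA-only peaks was wider among strong peaks, with 4.4% against 25.5% at pileups of 15 to 19 and 5.89% against 31.9% at 20 or more. ESRRB, the word TCAAGGTCA, contains such a half-site. It was in 200 LIF-only windows (0.915%), below shared windows (1.21%, difference -0.295, -0.431 to -0.145) and below RA-only windows (2.42%, difference -1.51, -1.88 to -1.17). The call against shared windows was kept under 7 of 11 alternatives. It was lost in 200-bp windows (-0.112), at a fold enrichment of at least 8 (-0.551), among the 100000 strongest peaks (-0.173) and at pileups of at least 15 (-0.352).

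The STAT word TTCCNGGAA was rare. It was in 283 LIF-only windows (1.29%), 1.2% of shared and 0.854% of RA-only windows. The difference to RA-only windows was 0.44 points (0.179 to 0.677), and it was lost when the interval was widened for the 36 comparisons made. The difference to shared windows was 0.0914 points (-0.0658 to 0.263). It was called under 5 of 11 alternatives, among them a fold enrichment of at least 8 (1.03 points, with 2.29% of LIF-only windows holding the word) and weighting by pileup (0.291 points), and not among the 100000 strongest peaks of each list (0.144 points). Windows with both a KLF and a STAT word numbered 15 (0.0686%), as in shared peaks (0.0688%).

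The octamer, the word of OCT4, was less frequent in LIF-only than in RA-only windows, and the SOX and OCT4-SOX2 differences changed with the processing. The octamer ATGCAAAT was in 2.68% of LIF-only, 3.05% of shared (difference -0.372, -0.604 to -0.127) and 3.45% of RA-only windows (-0.777, -1.24 to -0.346). The difference to RA-only windows kept its call under all 9 alternatives run, and that to shared windows lost it under 3 of 11. The OCT4-SOX2 composite, which contains the octamer and was searched with up to 3 mismatches in 15 bases, was in 6.09%, 6.54% and 5.71%, and its differences of -0.456 and 0.381 points turned in sign under 1 or more of the alternatives. They were -2.84 points to shared windows at 40 to 50% GC and -4.6 points to RA-only windows at a fold enrichment of at least 8, both called. The SOX word ACAATG was in 17.3% of LIF-only windows against 15.2% of shared (2.16 points, 1.62 to 2.72) and 16.2% of RA-only windows (1.13 points, 0.182 to 2.05). Among windows of 40 to 50% GC its difference to shared windows was -0.558 points, and at a fold enrichment of at least 8 that to RA-only windows was -1.72 points, and neither was called. The SOX difference to RA-only windows kept its call under 2 of 9 alternatives. AP-1, the word TGANTCA, was in 11.4% of LIF-only windows against 9.49% of shared (1.9 points, 1.44 to 2.36) and 9.74% of RA-only windows (1.65 points, 0.876 to 2.4, lost at pileups of at least 15). CTCF, searched by its consensus, was in 2.6% against 5.08% of shared (-2.47 points, -2.72 to -2.22) and 2.03% of RA-only windows (0.574, 0.192 to 0.929, lost in 3 alternatives). Where it was present, the CTCF consensus lay within 50 bp of the summit in 92.4% of LIF-only and 93.5% of shared windows. Of the KLF, STAT, ESRRB, SOX, octamer and OCT4-SOX2 motifs, 30.5% of LIF-only windows held at least 1, against 27.5% of shared and 27.9% of RA-only windows.

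The few LIF-only peaks inside enhancer regions that change between the states lay mostly in regions of the LIF state, a readout that the rule did not use. The authors predicted enhancers from H3K4me1, H3K4me3 and H3K27ac and deposited regions that change between the states, each with a probability of being an active enhancer in either. Of these, 186 were more probable in LIF and 141 in RA. LIF-only peaks inside such a region numbered 21, and 19 of them (90.5%, exact interval 69.6 to 98.8) were in LIF-active regions. Of 17 RA-only peaks inside a region, 1 was in a LIF-active region (5.88%, 0.149 to 28.7), and of 324 shared peaks 216 were (66.7%, 61.2 to 71.8). The exact intervals of the LIF-only and shared peaks overlapped, and the numbers are small beside the sets. LIF-active regions held 0.0869% of LIF-only peaks against 0.0119% of RA-only (difference 0.075 points, 0.0115 to 0.125, a call that was lost under 3 alternatives) and 0.209% of shared peaks (-0.122, -0.166 to -0.0672), and the last difference changed sign, to 0.0574 points, when shared peaks were weighted by pileup. RA-active regions held 0.00915% of LIF-only peaks, below RA-only (0.19%, difference -0.181, -0.299 to -0.104) and shared peaks (0.105%, difference -0.0955, -0.118 to -0.0654).

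The 19 LIF-only peaks lay in 18 of the 186 LIF-active regions (9.68%), and 11 of those 18 also held a shared peak. The 18 regions had enhancer probabilities of 0.881 to 0.98 in LIF and 0 to 0.26 in RA. The strongest member among them (chr13:5584293-5584580, fold enrichment 10.3, pileup 21) lay in an intron of the noncoding gene Gm35330, in a region with a probability of 0.97 in LIF and 0.0178 in RA, and the nearest RA peak was 298 bp away. An intron of Jazf1, a transcriptional cofactor gene, held 2 members of fold enrichment 7.93 and 6.07 inside 1 region (chr6:52802201-52802800, probability 0.881 in LIF and 0 in RA), with the nearest RA peak at 14788 bp. Others lay 96683 bp from Sulf2, which encodes a heparan sulfate sulfatase, 5026 bp from Agtrap, an angiotensin receptor binding protein, 79092 bp from H2afz, a histone variant gene, and 1661 bp from Gm2a, a lysosomal activator protein. Over the 300-bp windows of the 21 members in changing regions, 3 held a KLF word (near Sulf2, Agtrap and Aoc1), 5 a SOX word, the Gm35330 member among them, 3 an AP-1 word, 2 a RAR repeat, 1 a STAT word and 1 the OCT4-SOX2 composite. In percent these were 14.3% for KLF, 23.8% for SOX, 14.3% for AP-1 and 9.52% for RAR repeats, beside 7.02%, 17.3%, 11.4% and 5.39% of all LIF-only windows, and no comparison was made over so few windows. The member 5443 bp from Aoc1, an amine oxidase gene, had a fold enrichment of 6.41 in a region with a probability of 0.941 in LIF and 0.0094 in RA, and its central window (chr6:48867393-48867513) is shown for the KLF word in capitals beside the summit. Its 300-bp window also held an OCT4-SOX2 composite and a RAR repeat.
LIF-only peak near Aoc1: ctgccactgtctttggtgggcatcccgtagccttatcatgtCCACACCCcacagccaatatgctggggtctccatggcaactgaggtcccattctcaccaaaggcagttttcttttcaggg
The 2 members in RA-active regions were in introns of Morn1 (fold enrichment 6.12, probability 0.0164 in LIF and 0.97 in RA) and of the noncoding gene Gm14005 (5.04, 0.0188 and 0.931), the latter 1 bp from an RA peak.

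Genes of pluripotency and of the LIF pathway had LIF-only peaks nearby, in numbers near the background. Within 100 kb of the starts of 30 such genes there were 654 pairs of a gene and a LIF peak, of which 102 (15.6%) were with LIF-only peaks, beside 17.5% over all LIF peaks. At least 1 LIF-only peak was near 28 of the 30 genes, and near 25 of 30 genes of RA metabolism and response. Of the 2188 genes placed from the deposited RNA-seq comparison, 1755 (80.2%) were the nearest such gene to 1 or more within 100 kb, a stricter count. A LIF-only peak nearby was thus common among genes of other kinds too. Sox2 had 9 of 23 LIF peaks, Socs3, a feedback inhibitor of LIF signaling, 8 of 26, Tbx3 7 of 27, Nr5a2 6 of 12 and Lefty2 6 of 35. Of the LIF receptor genes, Il6st had 5 of 19 and Lifr 4 of 16, and Esrrb had 5 of 18. Pou5f1, the gene of OCT4, had 2 of 34, Klf4 1 of 11, and Zfp42 and Nodal had none of 17 and 27. LIF-only outnumbered RA-only peaks at 21 of the genes, equalled them at 4 and were fewer at 5, in a ratio of 2.43 over all pairs, where the whole sets stand at 2.59. As a share of peaks, 0.43% of LIF-only peaks were within 100 kb of such a gene start, against 0.495% of shared (difference -0.0654, -0.156 to 0.0389) and 0.486% of RA-only peaks (-0.0565, -0.246 to 0.103). Both differences changed in sign under several alternatives.

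**Figure D5:**
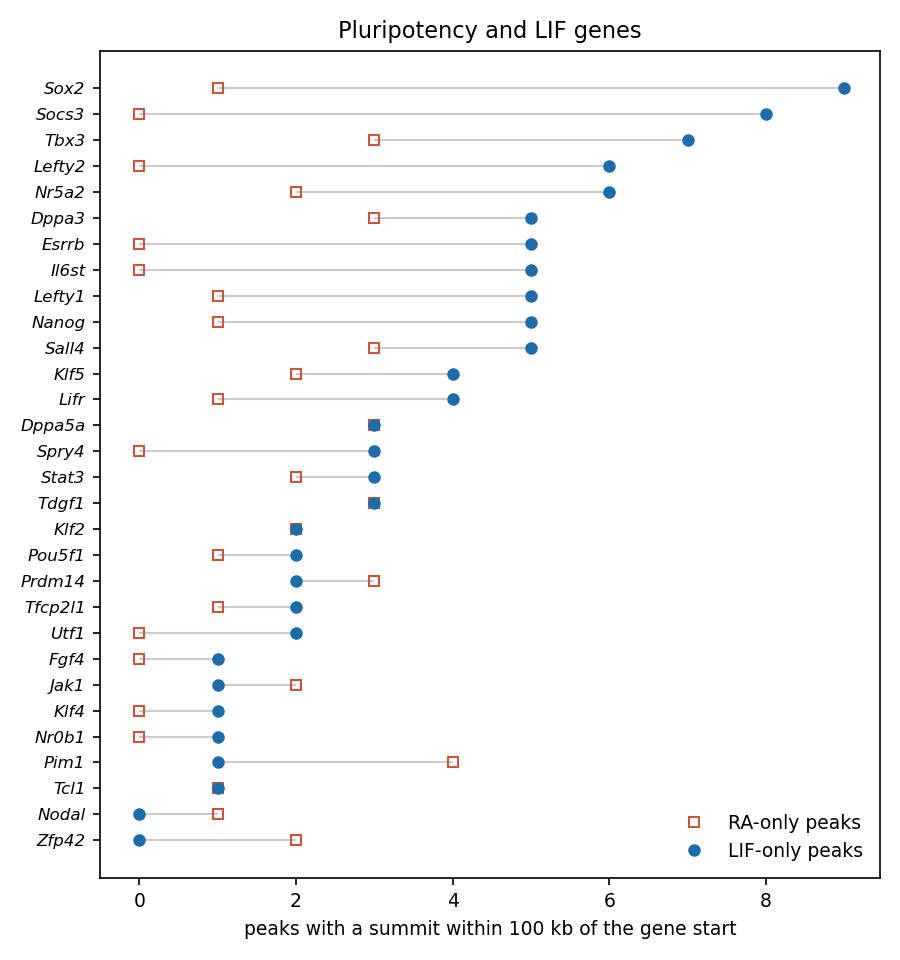
Number of LIF-only and RA-only peaks with a summit within 100 kb of the gene start (horizontal axis) for 30 pluripotency and LIF pathway genes (vertical axis); a line joins the pair of counts of each gene. Sox2 has the most LIF-only peaks with 9, and 5 genes have more RA-only than LIF-only peaks, while the whole LIF-only set is 2.59 times the size of the RA-only set.

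The strongest of these peaks lay 31379 bp from the start of Klf4 (chr4:55501001-55501181). Its fold enrichment was 10.7 with a pileup of 18 in LIF, and the nearest RA peak was 13541 bp away. The Lifr member (chr15:7056820-7057036), 33675 bp from the start, had a fold enrichment of 8.42 and a pileup of 14, with the nearest RA peak at 14463 bp. Their central windows of 121 bases are shown for the genes' place in LIF signaling and hold no word of the pluripotency or RAR motifs. In the 300-bp window the Lifr member held an OCT4-SOX2 composite and an AP-1 word, and the Klf4 member none of the 9 motifs.
Klf4 (chr4:55501027-55501147): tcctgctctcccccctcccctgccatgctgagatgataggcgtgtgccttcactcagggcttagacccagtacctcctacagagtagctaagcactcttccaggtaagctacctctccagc
Lifr (chr15:7056879-7056999): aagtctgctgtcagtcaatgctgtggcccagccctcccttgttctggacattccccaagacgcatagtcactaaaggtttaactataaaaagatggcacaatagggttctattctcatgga
Members inside gene bodies were found in Esrrb (fold enrichment 8.89, 89976 bp from its start) and in Nr5a2 (8.38, 71457 bp), both encoding nuclear receptors. The Socs3 member lay 65244 bp from that gene in an intron of Dnah17 (8.01) and the Klf5 member 57045 bp from its gene (7.96), and both held the KLF word in the 300-bp window but not in the central 121 bases. The Sox2 member, 66314 bp away (8.41), was at the start of the gene model Gm3143 with 98.3% of its window repeat-masked. Members near Tdgf1 (8.98, 63936 bp), an embryonic signaling cofactor, and Dppa5a (8.98, 48425 bp) completed this group together with 1 near Spry4 (8.76, 92315 bp), an inhibitor of growth factor signaling.

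Around 30 genes of RA metabolism and response, LIF-only peaks made up 74 of 564 pairs (13.1%), beside 17.5% over all LIF peaks. The ratio of LIF-only to RA-only pairs was 1.51, beside 2.59 over the whole sets. LIF-only outnumbered RA-only peaks at 17 of these genes, equalled them at 5 and were fewer at 8. LIF-only peaks near such a gene were 0.265% of the set, below shared (0.387%, difference -0.122, -0.194 to -0.0361) and RA-only peaks (0.427%, difference -0.162, -0.336 to -0.0203), and both calls were lost under 2 or more alternatives. Rxra, which encodes the partner of RA receptors, had 9 LIF-only and 1 RA-only peak. Nrip1, a nuclear receptor corepressor, had 0 and 5, and Cyp26b1, an RA-degrading enzyme, 0 and 4. Cyp26a1 had 2 and 3. The Hoxb genes shared their peaks, since 4 starts of that cluster lie within 100 kb of each other.

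LIF-only peaks were less often near a gene listed in the deposited RNA-seq comparison than shared peaks, though not at equal pileup. How the authors selected its genes is not given in the sources used here, so a listed gene is one present in that table and nothing more. A start of the 2188 placed genes lay within 100 kb of 4560 LIF-only peaks, or 20.9% of the set, against 26.3% of shared (difference -5.46 points, -6.06 to -4.86) and 19.6% of RA-only peaks (1.29 points, 0.28 to 2.29, and -8.09 at pileups of at least 15). The first difference changed sign, to 1.5 points, when shared peaks were weighted by pileup and, to 4.32 points, at pileups of at least 15. The peaks were spread thinly, with a median of 2 per gene and 527 genes with 1, each peak counted at its nearest listed gene and genes without one left out. Fgd1, Pdgfa and Tnrc6c had the most, 10 each, out of 23, 19 and 22 LIF peaks, with 2, 1 and 1 RA-only peaks. They encode a guanine nucleotide exchange factor, a growth factor and a protein of microRNA silencing, and had mean normalized counts of 3732, 1686 and 2934. Only 65 LIF-only peaks were within 1 kb of the start of a listed gene.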

How the data were processed

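ATAC-seq reads (paired-end, 1 library per state) were aligned by the authors to GRCm38 with BWA-MEM, duplicates were removed with SAMtools and peaks were called with MACS2 in each library. The version and options of MACS2 are not given in the sources used here. The deposited peak lists give the fold enrichment over background and the −log10 p and q values at each summit. Read totals were not used. The deposited list of changing enhancers gives the authors' enhancer probability, a fraction between 0 and 1, in each state. It was computed from 1 library of each histone mark and an input library per state, and a region was assigned to the state with the higher probability. The authors' deposited RNA-seq comparison gives a mean normalized signal (counts over size factors) over 6 libraries. Its fold changes, errors and p-values are the authors' own comparison and were not used. The table served as a list of 2189 genes, of which 2188 were placed. How its genes were selected is not given in the sources used here.

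Peaks with a fold enrichment of at least 5 were compared between the lists with an overlap of 1 bp. Pileups were recovered as the whole number that returns the listed p within 0.001 on the −log10 scale (100% of peaks). Sequence came from GRCm38.p6 and genes from its GENCODE annotation. A promoter was a summit within 1 kb of a gene start, and distal meant beyond 10 kb. Motifs were searched as words on both strands of 300-bp windows around the summit. Shares are given with exact (Clopper-Pearson) and differences of shares with Newcombe 95% intervals. Differences in mean GC and repeat content have 95% intervals from their standard errors. A difference was called when its interval excluded 0, which held for 29 of 36 and, with intervals widened for 36 comparisons, for 19. Peaks are not replicates, so no p-value is given.

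Named peaks are the 10 of highest fold enrichment, the 10 strongest in changing regions, the strongest within 100 kb of each pluripotency gene (at most 10) and the strongest with the octamer, OCT4-SOX2, ESRRB, KLF or STAT motif near its summit. The Gm2a, Morn1 and Gm14005 peaks were singled out after values were seen, although Gm2a and Morn1 rank among the 10 strongest in changing regions. The 3 added KLF peaks, the 3 genes with the most peaks and examples within gene lists were also singled out after values were seen. Some genes that the rule for named peaks reaches are not reported here. The members and lists were chosen with earlier results of these data known. Interval, motif, pileup and difference functions were tested on simulated data (15 of 15 checks passed). The software was pysam 0.24.0 and SciPy 1.17.1 for sequence and intervals, pandas 2.3.3 with NumPy 2.4.6 for tables, and matplotlib 3.10.9 for plots, under Python 3.11.15.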

Additional observations from a re-analysis of the deposited data

Results flagged for a closer look

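LIF peaks with a fold enrichment of at least 5 and no RA peak were also present outside the chromosomes of the rule, in data that no comparison above used. They numbered 10 of 47 LIF peaks on chromosome Y (21.3%) and 9 of 44 on unplaced scaffolds (20.5%), beside 17.5% of LIF peaks on chromosomes 1 to 19 and X. The numbers exceed the 3 counts that a count of 0 allows, a limit that says nothing of how these shares stand to the others.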

How the results depend on the processing

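Apart from the number of LIF-only peaks, values are differences in percentage points, LIF-only minus the other set. They are shares of peaks or windows or mean GC and repeat content. Under 14 other settings 328 values were recomputed, and 2 of the settings (both by pileup) were added after seeing the data. Of the values, 235 were kept, 42 lost a call, 18 gained one and 31 changed in sign. A kept difference held its sign and its call. The number of LIF-only peaks, which has no sign or call, was entered as kept at 17095, 18787, 26200 and 16783. The number of LIF-only peaks moved to 1178 at a fold enrichment of at least 8 and to 2551 at pileups of at least 15. Of 15 called differences to shared peaks, 6 kept their call under every setting run: promoter, GC, repeat, KLF, CTCF and AP-1. Of 14 to RA-only peaks, 4 did: octamer, ESRRB, RAR repeat and RA-active region. The KLF difference to RA-only peaks lost its call only at a fold enrichment of at least 8, where 313 RA-only peaks remained. The cause of these shifts was not tested. Widened for 36 comparisons, the intervals of 10 called differences included 0. Those to shared peaks were octamer, OCT4-SOX2 and RA gene, and those to RA-only peaks were promoter, SOX, STAT, CTCF, LIF-active region, listed gene and RA gene.

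With a fold enrichment of at least 8, against shared peaks the call was lost for octamer (-0.835), OCT4-SOX2 (-1.22), SOX (1.4), ESRRB (-0.551), LIF-active region (-0.145) and RA-active region (-0.0854), and a call was gained for STAT (1.03), and the sign changed for pluripotency gene (0.33) and RA gene (0.0051). Against RA-only peaks the call was lost for promoter (-0.653), repeat (0.785), KLF (2.99), STAT (1.01), CTCF (2.11) and LIF-active region (0.0849), and a call was gained for distal (-6.15), and the sign changed for OCT4-SOX2 (-4.6), SOX (-1.72), listed gene (-1.52) and pluripotency gene (0.445). With a −log10 q of at least 5, against RA-only peaks the call was lost for promoter (-0.393) and RA gene (-0.145), and a call was gained for distal (-2.68) and GC (0.169). With no peak of the other list within 500 bp, against shared peaks the call was lost for octamer (-0.234) and OCT4-SOX2 (-0.0716), and the sign changed for RAR repeat (0.0612). Against RA-only peaks the call was lost for SOX (0.858), CTCF (0.423) and LIF-active region (0.0586), and a call was gained for distal (-2.42) and GC (0.295), and the sign changed for promoter (0.408) and OCT4-SOX2 (-0.0133). With under 50% of a peak covered, against shared peaks a call was gained for STAT (0.157). For the RA-only set the call was lost for listed gene (0.621), and the sign changed for GC (-0.118). Among the 100000 strongest peaks of each list, against shared peaks the call was lost for ESRRB (-0.173), LIF-active region (-0.0716) and RA gene (-0.0939), and the sign changed for pluripotency gene (0.0661). Against RA-only peaks the call was lost for repeat (0.104) and SOX (0.315), and a call was gained for distal (-4.88) and GC (0.48), and the sign changed for promoter (0.0821), OCT4-SOX2 (-0.295) and pluripotency gene (0.0698). At pileups of at least 15, against shared peaks the call was lost for SOX (0.114), ESRRB (-0.352) and RA-active region (-0.12), and a call was gained for STAT (0.612), and the sign changed for LIF-active region (0.236), listed gene (4.32), pluripotency gene (0.536) and RA gene (0.0317). For the RA-only set the call was lost for STAT (0.558), CTCF (0.261), AP-1 (0.455) and LIF-active region (0.321), and the sign changed for distal (1.54), GC (-0.16), OCT4-SOX2 (-0.236), SOX (-1.37), listed gene (-8.09) and pluripotency gene (0.342). With shared peaks weighted by fold enrichment, against shared peaks the call was lost for octamer (-0.267), and a call was gained for STAT (0.193), RAR repeat (-0.715) and pluripotency gene (-0.183), and the sign changed for OCT4-SOX2 (0.249). In 200-bp windows, against shared peaks the call was lost for ESRRB (-0.112). Against RA-only peaks the call was lost for SOX (0.718). In windows of 40 to 50% GC, against shared peaks a call was gained for RAR repeat (-0.531), and the sign changed for SOX (-0.558). For the RA-only set the call was lost for SOX (1.14). In windows under 50% repeat-masked, against shared peaks the call was lost for OCT4-SOX2 (-0.316), and a call was gained for RAR repeat (-1.1). Against RA-only peaks the call was lost for SOX (0.877). Within 50 kb of gene starts, against shared peaks a call was gained for pluripotency gene (-0.123). For the RA-only set the call was lost for listed gene (0.0036) and RA gene (-0.0801), and the sign changed for pluripotency gene (0.0096). With shared peaks weighted by pileup, against shared peaks the call was lost for SOX (0.313) and RA gene (-0.0703), and a call was gained for STAT (0.291) and RAR repeat (-1.12), and the sign changed for distal (-1.08), LIF-active region (0.0574), listed gene (1.5) and pluripotency gene (0.11).

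No paired analysis was possible because each ATAC-seq state has 1 library, which also leaves no replicate to leave out. The depth of the libraries is known only through the recovered pileups.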
